A study of Mus musculus with 48 samples.

Results

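B cell receptor and follicle genes were followed across 6 mouse tissues 9 days after Roux en Y gastric bypass (RYGB) or sham surgery. They are 9 genes (Cd79a, Cd79b, Cr2, Cd22, Blk, Ms4a1, Fcer2a, Pax5 and Spib) of the 15541 genes listed in any of the 6 tissue tables, taken by their symbol with 1 Ensembl ID each. They were selected on the difference in their values between the RYGB and sham libraries of white adipose tissue (WAT), so their WAT values are a description with no test. The mice were male C57Bl6 animals made obese by a high fat diet, and their age is not given in the sources used here. Both surgery groups received an elemental liquid diet after the operation, and all mice were fasted overnight before they were killed in the morning. The 48 libraries came from subcutaneous WAT, liver and muscle (4 RYGB and 4 sham libraries each), from duodenal villi and jejunal villi (3 RYGB and 4 sham libraries each) and from ileal villi (5 and 5). The villi were scraped off after incubation in cold EDTA, so these libraries stand for scraped villi and not for the whole wall.

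A B cell recognises antigen with a membrane immunoglobulin that has almost no cytoplasmic tail of its own, and the pair of Cd79a and Cd79b carries the signal into the cell. Src-family kinases such as Blk phosphorylate this pair, the complement receptor Cr2 (CD21) lowers the threshold, and Cd22 recruits phosphatases that dampen the response. In lymph nodes and spleen, resting B cells gather in follicles, drawn there by the chemokine Cxcl13 of the follicular stroma. Fat tissue holds scattered B cells and small lymphoid clusters, and lymph nodes lie embedded in subcutaneous fat. The values are CPM, in which each count is scaled to a common library total, rounded to 0.1. In bulk tissue, fewer cells of a type and less RNA per cell cannot be told apart.

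All 9 genes were listed in WAT. In the villi tables Spib was the only one of them listed, in the liver Cd22 and Cd79b were listed, and in muscle 0 of the 9 were listed. Every listed gene reached 1 CPM in a number of libraries no smaller than the size of its tissue's smaller group. The columns summed to between 925122 and 998777 CPM. The libraries' read totals are not in the tables, so depth is unknown and no counting interval was given. The defining genes of the sampled tissues were present, with Adipoq, the fat cell hormone adiponectin, at 863.8 to 1592.1 CPM in RYGB WAT and 1692.4 to 2153.1 CPM in sham WAT.

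The stretches before the gene starts are shown because the 9 genes moved together in WAT. RefSeq promoter entries (GRCm38.p6) matched 6 of the 9 genes with 8 windows, and Ms4a1, Cd79b and Blk had none. Each of the 250-base windows before a start was searched on both strands for letters known from B cell promoters. These were the PU box GAGGAA and the ETS core GGAAGT, both bound by factors of the family of Spib, the E-box CAGGTG, the EBF palindrome (TCCC and GGGA with any 2 bases between them) and the octamer ATGCAAAT. The windows of Cr2 (chr1:195176720-195176969, minus strand), Cd79a (chr7:24897247-24897380, plus strand, cut at the gene's annotated start), Fcer2a (chr8:3694176-3694424, minus strand) and Spib (chr7:44532072-44532321, minus strand) read as follows, 5′ to 3′ along the gene, with matches in capitals (in reverse complement where the match is on the other strand).
Cr2: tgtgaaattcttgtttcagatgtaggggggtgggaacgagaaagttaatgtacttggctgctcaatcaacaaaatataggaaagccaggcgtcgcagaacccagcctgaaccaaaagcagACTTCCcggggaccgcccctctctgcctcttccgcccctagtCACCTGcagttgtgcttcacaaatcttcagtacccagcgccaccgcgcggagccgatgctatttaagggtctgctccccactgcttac
Cd79a: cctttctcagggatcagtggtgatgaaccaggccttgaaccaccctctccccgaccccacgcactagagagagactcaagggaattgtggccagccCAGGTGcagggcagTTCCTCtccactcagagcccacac
Fcer2a: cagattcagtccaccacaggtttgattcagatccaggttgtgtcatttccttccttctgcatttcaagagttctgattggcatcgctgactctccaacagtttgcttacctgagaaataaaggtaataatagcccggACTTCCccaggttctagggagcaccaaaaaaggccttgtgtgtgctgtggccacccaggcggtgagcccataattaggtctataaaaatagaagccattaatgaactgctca
Spib: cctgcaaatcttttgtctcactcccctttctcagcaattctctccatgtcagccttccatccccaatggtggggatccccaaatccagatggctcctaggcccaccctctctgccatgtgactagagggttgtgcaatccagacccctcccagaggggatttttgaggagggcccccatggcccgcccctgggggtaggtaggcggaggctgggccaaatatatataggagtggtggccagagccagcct
The E-box letters stood in 4 of the 8 windows (of Cr2, Cd79a, Cd22 and Fcer2a) and in 17.2% of all 32851 promoter windows. The windows of Cd22 and Fcer2a that held them lie inside the annotated gene. The ETS core was found in 3 of the 8 windows (of Cr2, Cd79a and Fcer2a) against 19.7% of all windows. The PU box was found in 1 of the 8 (Cd79a) against 23.3%. The EBF palindrome, which occurs in 0.779% of all windows, was found in the window of Cd22 alone, and the octamer (1.6% of all) in 0 of the 8. Spib and Pax5 held none of the 5 in these windows. The window of Pax5 does not reach the annotated start of its gene, and the bases just after it were in no annotated transcript of Pax5. Such matches describe letters and are not shown to be bound. Some windows lie inside a gene or reach past its annotated start, where no sequence is printed.

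In WAT each of the 9 genes was at 17.7 CPM or more in every RYGB library, and at 11.6 CPM or less in every sham library. This is the contrast that chose them, so the separation is given without a test. A gene is called here at a Benjamini-Hochberg adjusted p under 0.05 (limma on log2(CPM + 1)) and at least 1.5-fold. Of the 13379 genes tested 14.9% were called higher and 24.1% in either direction, and that 9 of 9 of these genes are among them follows from how they were chosen. Of all called genes 61.8% were higher, and 50.3% were after scaling the libraries by their median ratio. Likewise, all 9 had every RYGB library above every sham library, which held for 26.1% of all genes tested. The smallest gap between groups was in Cd22, whose lowest RYGB library had 19.6 times the CPM of its highest sham library. The widest was in Cr2, at 122.6 times.

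**Figure D1:**
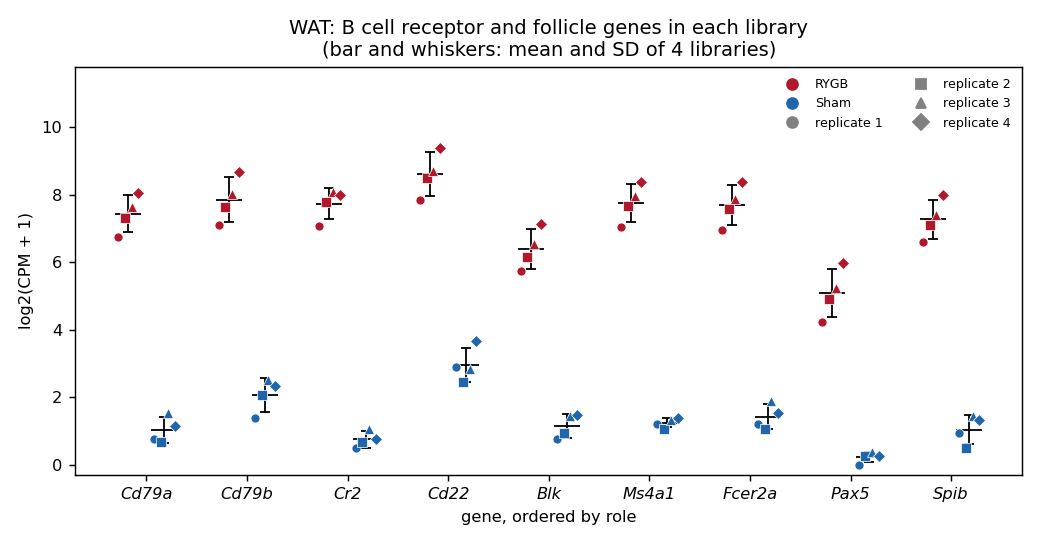
Log2(CPM + 1) of the 9 genes in each WAT library, in red for RYGB and blue for sham, with the marker shape giving the replicate, and the mean and SD of 4 libraries in black. In every gene the 4 RYGB libraries lie above the 4 sham libraries, RYGB replicate 1 is the lowest RYGB library, and Cr2 is the only gene in which RYGB replicate 4 is not the highest.

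The receptor's signalling pair was the most abundant of the set per length of transcript in the RYGB group. Cd79a (chr7:24897381-24902197 in GRCm38) had 106.4, 158.6, 198.2 and 263.7 CPM in RYGB replicates 1 to 4 and 0.7, 0.6, 1.9 and 1.2 CPM in sham replicates 1 to 4. Cd79b (chr11:106311341-106314762) had 136, 198.8, 261.5 and 404.3 CPM in the RYGB libraries and 1.6, 3.2, 4.7 and 4 CPM in the sham libraries. The groups did not overlap in either gene, and the mean CPM of Cd79a was 165.2 times as high in the RYGB group while that of Cd79b was 74.1 times as high. On the log2(CPM + 1) scale, which understates the change of genes near 0, the differences were 6.41 for Cd79a and 5.79 for Cd79b.

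Cr2, the coreceptor that binds complement fragments on antigen, is made by B cells and by follicular dendritic cells. It lies at chr1:195136811-195176716 and had 134.9, 217.9, 269.2 and 256.3 CPM in the RYGB libraries against 0.4, 0.6, 1.1 and 0.7 CPM in the sham libraries. Cr2 had the largest log2 difference of the 9 genes, at 6.99. Its order among the RYGB libraries differed from that of the other 8 genes, since it was highest in replicate 3 and was not raised further in replicate 4. By the ratio of means, the inhibitory receptor Cd22 (chr7:30865402-30880342) stood at the other end from Cr2. It had 227.1, 362.7, 420.7 and 674.7 CPM in the RYGB libraries and 6.4, 4.5, 6.2 and 11.6 CPM in the sham libraries. Its log2 difference was 5.65 and its ratio of means, at 58.7, was the smallest of the 9.

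Blk, the Src-family kinase of the B lineage, lies at chr14:63372836-63417037. It had 52.3, 70.9, 92.7 and 139.2 CPM in the RYGB libraries and 0.7, 0.9, 1.7 and 1.8 CPM in the sham libraries, a log2 difference of 5.24. Surface proteins of mature B cells moved alongside it. Ms4a1, which encodes CD20 (chr19:11249675-11266241), had 130.6, 201.1, 247.7 and 330.3 CPM against 1.3, 1.1, 1.5 and 1.6 CPM. Fcer2a, the low-affinity IgE receptor CD23 of follicular B cells (chr8:3681737-3694175), had 122.3, 191.1, 232.9 and 335.3 CPM against 1.3, 1.1, 2.7 and 1.9 CPM. The log2 differences were 6.51 for Ms4a1 and 6.28 for Fcer2a, and their sham values stayed above 1 CPM in all 4 libraries, as did those of Cd22 and Cd79b.

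The transcription factors stood far apart from each other in level. Pax5, which holds B cells to their identity (chr4:44524757-44710487), had 17.7, 29.3, 36.9 and 61.4 CPM in the RYGB libraries and 0, 0.2, 0.3 and 0.2 CPM in the sham libraries. A value of 0 was listed for no other gene of the set, and at a rounding of 0.1 CPM the sham level of Pax5 has little precision. Its log2 difference of 4.86 was the smallest of the 9, while its ratio of means was 207.6. Spib, an ETS-family factor of B cells and plasmacytoid dendritic cells that intestinal M cells also use (chr7:44525993-44532071), had 95.2, 136.6, 169.7 and 252.9 CPM against 0.9, 0.4, 1.7 and 1.5 CPM. Its log2 difference was 6.23.

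Because 5 of the 9 genes were under 1 CPM in at least 1 sham library, they entered the WAT table through their RYGB libraries, and 4 would have been listed from the sham libraries too. Summed over the 9 genes, CPM was 1022.5, 1567, 1929.5 and 2718.1 in RYGB replicates 1 to 4 and 13.3, 12.6, 21.8 and 24.5 in sham replicates 1 to 4. RYGB replicate 1 was the lowest RYGB library for 9 of 9 genes and replicate 4 the highest for 8 of 9. The set thus differed between RYGB libraries mostly as a block, and the share of all genes with this order was not counted. The summed CPM of the signalling, immunoglobulin and T cell genes described below was also lowest in RYGB replicate 1 and highest in replicate 4. Among the sham libraries the highest value fell in replicate 3 for 6 genes and in replicate 4 for 3. Lanes 5 and 6 held libraries of both groups, and within them the log2 differences of the 9 genes ranged from 4.95 to 7.34. RYGB replicate 1 and sham replicate 3 were each the only WAT library of their lane, so mouse and lane cannot be told apart for them.

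The make-up of the set varied less within the RYGB group than within the sham group, Cr2 excepted. Cd22 made up 21.8% to 24.8% of the summed CPM of the 9 genes in the RYGB libraries and 28.4% to 48.1% in the sham libraries. Cr2 made up 9.43% to 13.95% in the RYGB libraries and 2.86% to 5.05% in the sham libraries. In both genes the ranges of the groups did not overlap, and the same held for Blk, Cd79a, Ms4a1, Pax5 and Spib, while Cd79b and Fcer2a overlapped. The shares come from the contrast that chose the genes, and they rest on a summed level of at most 24.5 CPM in the sham group.

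**Figure D2:**
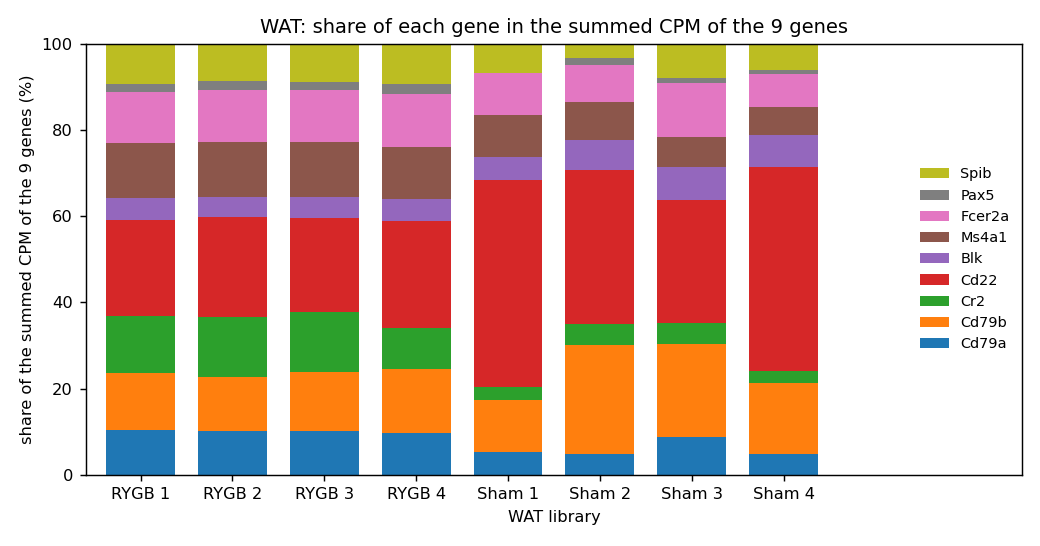
Stacked bars of the share (%) that each of the 9 genes had of their summed CPM, with 1 bar for each WAT library. The RYGB bars resemble each other, and the Cd22 segment is wider and the Cr2 segment narrower in every sham bar.

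Levels of different genes were compared per kilobase of exon (GENCODE M21). In the RYGB group Cd79b had the highest mean CPM per kilobase, 174.8 ± 80.2 (SD, n = 4), followed by Cd79a with 124.7 ± 45.5, Cd22 with 83.6 ± 37.2 and Fcer2a with 71.3 ± 28.8. Spib had 57.0 ± 23.3, Ms4a1 36.8 ± 13.5, Blk 32.9 ± 13.9, Cr2 27.1 ± 7.46 and Pax5 4.10 ± 2.09 CPM per kilobase (SD, n = 4 each). The means of neighbours in this order differed by less than 1 SD of the higher gene, Cr2 and Pax5 excepted, but within a library the order was the same in 4 of 4 RYGB libraries for every neighbouring pair other than Blk and Cr2, which held it in 3 of 4. In the sham group the order differed, with Cd79a above Cd22 in 1 of 4 libraries and Ms4a1 above Blk in 0 of 4.

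The other genes of B cell receptor signalling mostly rose in WAT as well, though by less. These lists were written with earlier results of these data known, and some of their genes act in T cells and myeloid cells too. Of 21 signalling genes 17 were called higher, 1 lower and 3 were not called, where 9.23% of all genes tested were called lower, with a median log2 fold change of 1.40 against 0.11 over all genes tested. Among them Cd72, another inhibitory receptor, had 75.6 to 151.7 CPM in the RYGB libraries and 10.3 to 26.9 CPM in the sham libraries (log2 fold change 2.59, SE 0.33). The kinase Prkcb was at 2.57 (SE 0.32) and the phosphatase Ptpn6, which Cd22 recruits, at 2.45 (SE 0.27). Cd81, a coreceptor partner that most cell types make, was the gene called lower, at -0.61 (SE 0.14). The inhibitory Fc receptor Fcgr2b, shared with macrophages, was at 0.36 (SE 0.14) and not called.

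Of 12 B cell transcription factors 8 were called higher and 0 lower, with a median of 2.44. The coactivator Pou2af1 was at 90.6 to 249.1 CPM against 0.9 to 2.6 CPM (5.78, SE 0.31), and Ikzf3 and Bcl11a had log2 fold changes of 5.17 (SE 0.35) and 5.03 (SE 0.32). Ebf1, which B cells share with fat cell precursors, had 155.1 to 190.8 CPM in the RYGB group and 179.7 to 254 CPM in the sham group and was not called (-0.40, SE 0.13). Spi1, the myeloid relative of Spib, was at 0.07 (SE 0.16) and not called either.

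All 19 tested genes for the surface and homing of follicular B cells were called higher, with a median of 5.14. The IgM receptor Fcmr stood at the top (6.12, SE 0.30), with 78.9 to 221.6 CPM against 0.7 to 1.7 CPM. Cxcr5, the receptor for Cxcl13 that leads B cells into follicles, had 47.2 to 128.3 CPM against 0.6 to 1.1 CPM (5.43, SE 0.26). The BAFF receptor Tnfrsf13c had 39.7 to 106.6 CPM against 0.1 to 0.5 CPM (5.64, SE 0.28). Cd180, a Toll-like receptor relative also found on macrophages, moved least, at 0.94 (SE 0.19).

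Genes of later B cell stages gave a mixed picture. Among germinal centre genes Gcsam rose from 0.5 to 1.2 CPM in the sham group to 3.6 to 9 CPM in the RYGB group (1.94, SE 0.24). Bcl6 and S1pr2 were not called, at 0.20 (SE 0.36) and -0.34 (SE 0.13), and Rgs13 and Mef2b were not listed. Of 8 listed immunoglobulin constant genes 7 were called higher, with a median of 4.70, and close paralogs among them can share reads. The median was 3.77 without RYGB replicate 4, whose summed CPM of these genes was 5049.9 against 1220.5 to 2070 in the other RYGB libraries. Ighm had 905.1 to 2307.1 CPM in the RYGB group and 56.2 to 335.3 CPM in the sham group, while Igha, the constant gene of IgA, ranged from 0.6 to 179.1 CPM in the RYGB group and was not called (0.85, SE 1.36). Among 6 plasma cell genes Jchain and Mzb1 were called higher, Sdc1 lower, and Xbp1, Prdm1 and Derl3 were not called. Sdc1 is also made by other cells than plasma cells. Without sham replicate 2, 1 plasma cell gene was called higher.

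Genes of the follicle's stroma and of B cell support also rose, 7 of 9 being called higher and 0 lower, with a median of 1.09. Cxcl13 had 78.6, 120.3, 146.1 and 231.8 CPM in the RYGB libraries and 22.6, 1.4, 7.2 and 5.5 CPM in the sham libraries (4.18, SE 0.62). Clu, abundant in follicular dendritic cells, had 308.8 to 964.6 CPM against 30.3 to 34.4 CPM (3.85, SE 0.31). Mfge8, which follicular dendritic cells and vessel walls make, did not follow them, at -1.07 (SE 0.47) and not called.

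**Figure D3:**
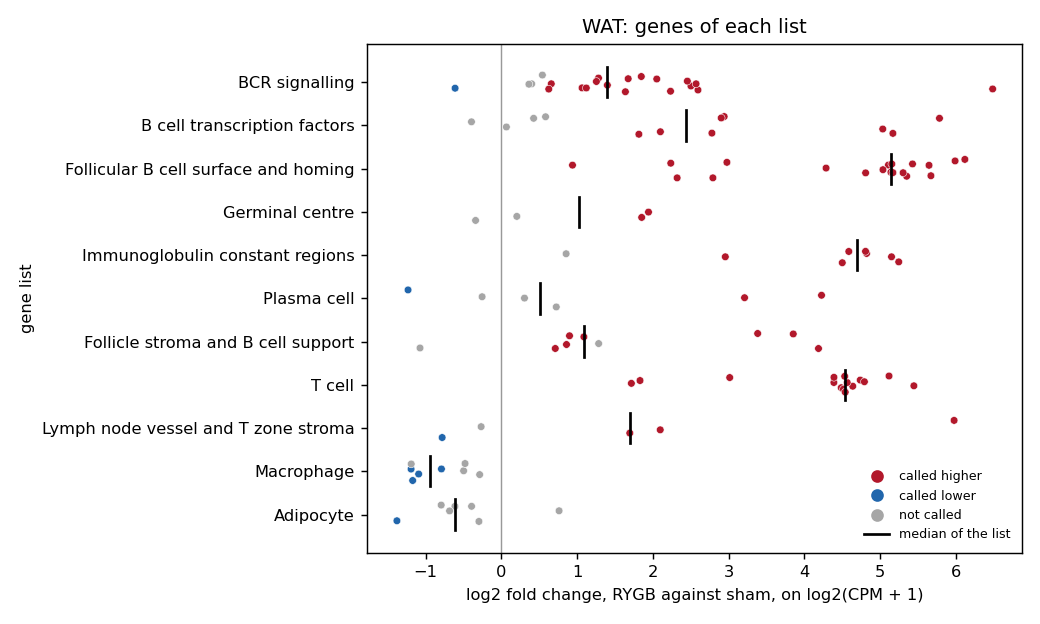
Log2 fold change in WAT (RYGB against sham, on log2(CPM + 1)) of the tested genes of 11 lists, with genes called higher in red, called lower in blue and not called in grey, and the median of each list as a black line. The genes for follicular B cell surface and homing and the T cell genes are all called higher, and the macrophage and adipocyte genes lie mostly below 0.

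Markers of other cell types moved with the 9 genes. Of 15 T cell genes 15 were called higher (median 4.53), and their summed CPM was 720.2 to 2825 in the RYGB libraries and 64.2 to 135.9 in the sham libraries, with none at 0 in any library. Like the 9 genes, it was lowest in RYGB replicate 1 and highest in replicate 4. Of 5 listed genes of lymph node vessels and T zone stroma, Glycam1, Chst4 and Fut7 were called higher, Pdpn lower, and Lyve1 was not called. Their summed CPM was 99.1 to 220.5 in the RYGB libraries and 51.9 to 98.4 in the sham libraries, and Ccl19 and Ccl21a were not listed. Glycam1, a ligand for lymphocyte entry made by the high endothelial venules of lymph nodes, had 42, 58.3, 58.1 and 136 CPM in the RYGB libraries and 0, 0.1, 0 and 0.2 CPM in the sham libraries. Of 5 plasmacytoid dendritic cell genes, Siglech and Ccr9 were called higher, and the other 3 were not called.

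Macrophage and adipocyte markers were not called higher. Of 8 macrophage genes 0 were called higher and 4 lower (median -0.94), with a summed CPM of 654.7 to 1234.4 in the RYGB libraries and 1322.7 to 2071.5 in the sham libraries. Of 7 adipocyte genes Lep, the gene of leptin, was called lower and 6 were not called (median -0.61). Their summed CPM was 19808.8, 17225.8, 16270.6 and 8701.1 in RYGB replicates 1 to 4 and 19604 to 26016.3 in the sham libraries, so that RYGB replicate 4 had the highest level of the 9 genes and the lowest of the adipocyte genes. Of 3 listed keratinocyte genes Krt5 and Dsp were called lower, at 0.3 CPM or less in the RYGB group, and Krt10 was not called. Single genes of other lists were called higher, Cdh17 of 3 listed enterocyte genes (1.3 to 4.4 CPM against 0 to 0.3 CPM) and Marcksl1 of 3 listed M cell genes (36.8 to 98.3 CPM against 11.3 to 15.4 CPM), while the M cell gene Ccl9 was called lower. The part of these cell types in the values of the 9 genes was not tested.

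**Figure D4:**
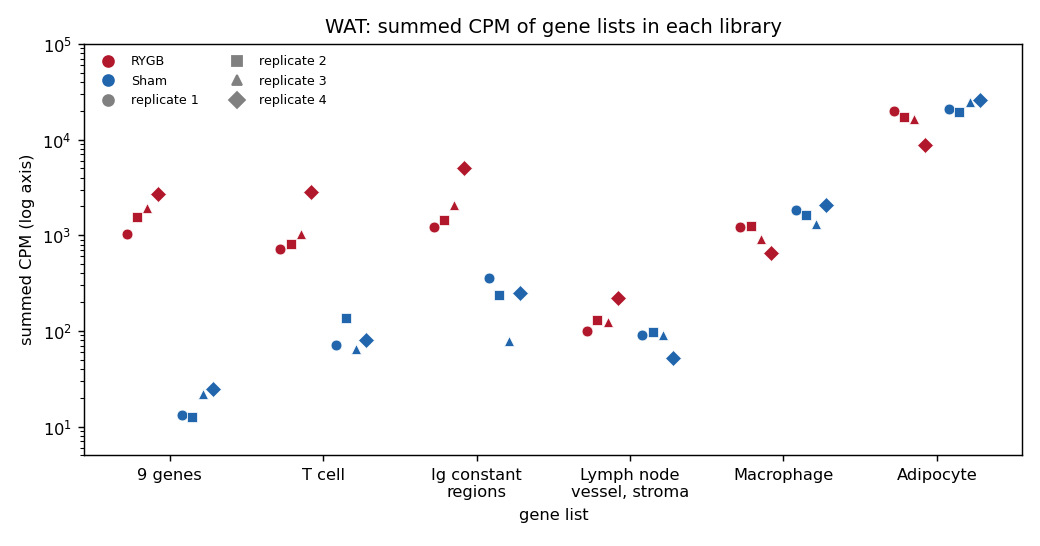
Summed CPM (log axis) of the 9 genes and of 5 marker lists in each WAT library, in red for RYGB and blue for sham, with the marker shape giving the replicate. In summed CPM, the 9 genes and the T cell and immunoglobulin lists separate the groups by far more than the lymph node vessel list. RYGB replicate 4 is highest in these 4 sets and lowest in the macrophage and adipocyte lists. The lymph node vessel sum includes Lyve1, which was not called, and Pdpn, which was called lower. Glycam1 of that list had 42 to 136 CPM in the RYGB libraries against 0 to 0.2 CPM in the sham libraries.

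The genes whose course over the 8 WAT libraries was nearest to the mean course of the 9 were mostly other B cell genes. Likeness was the root mean square difference of centred log2(CPM + 1), and 9 of the 10 nearest genes belonged to the lists above, with Fcmr nearest (0.10), then H2-Ob (0.14), Siglecg (0.18), Tnfrsf13c (0.19) and Pou2af1 (0.20). Outside the lists the nearest was Btla, an inhibitory receptor of lymphocytes, with 119.7 to 366.7 CPM against 1.7 to 3.8 CPM (0.20). It was followed by Cacna1i (0.40), the interleukin receptor Il9r (0.49), the scavenger receptor Marco (0.50), Treml2 (0.51), Acap1 (0.54), the interleukin receptor Il21r (0.57), the MHC class II gene H2-Eb2 (0.57), Chst3 (0.63) and Nsg2 (0.64). All of these genes followed the difference between the groups, which the choice of the 9 genes fixes.

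In the villi Spib was the only gene of the set to be listed, and it lay far below its level in RYGB WAT in all 24 libraries. The tables were normalized separately, so levels across tissues are a description. In the duodenum Spib had 18.2, 11.6 and 13.9 CPM in the RYGB libraries and 4.3, 5.9, 6.3 and 11.4 CPM in the sham libraries. The groups did not overlap, with RYGB replicate 2 and sham replicate 4 nearly level, and 12.7% of the 10850 genes tested in the duodenum also had every RYGB library above every sham library. The log2 fold change was 1.02 (SE 0.29, 95% interval 0.36 to 1.67) and did not pass the test over all genes (limma, adjusted p = 0.15). Of all genes tested in the duodenum 0.00922% were called (1 gene, and 2040 at an unadjusted p under 0.05). Without sham replicate 4 the log2 fold change of Spib was 1.25 (adjusted p = 0.022), and 757 genes were then called.

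In the jejunum Spib had 4.8, 4.7 and 10.7 CPM in the RYGB libraries and 4.6, 6.5, 6.4 and 4.1 CPM in the sham libraries. Replicate 3 alone lay above the sham range. The log2 fold change of 0.21 (SE 0.29, 95% interval -0.45 to 0.86) did not pass (adjusted p = 0.73), where 9.75% of all genes tested were called, 4.62% higher and 5.13% lower. It was -0.13 without RYGB replicate 3. In the ileum Spib had 3.1, 3.7, 10, 8.4 and 5.5 CPM in the RYGB group and 4.9, 5.5, 9.6, 7.3 and 7.6 CPM in the sham group, which overlap over most of their range. The log2 fold change was -0.23 (SE 0.28, 95% interval -0.84 to 0.38, adjusted p = 0.63), and 6.05% of all genes tested were called, 4.42% lower. Of all called ileal genes 27.1% were higher, and 46.3% were after scaling. In the ileum no lane held libraries of both groups, and lane and surgery therefore cannot be told apart there.

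The genes for the surface and homing of follicular B cells were largely unlisted in the villi. Of these 19 genes, 1 was listed in the duodenum, 2 in the jejunum and 1 in the ileum, with Cxcr5 listed in none. Of the 12 B cell transcription factors 7 were listed in each segment, Pou2af1 not among them. In the duodenum and the jejunum 0 of these 7 were called. In the ileum 2 of the 7 were called lower, where 4.42% of all genes tested were. Of the listed signalling genes, 0 of 13 were called in the duodenum, 2 were called higher and 1 lower of 13 in the jejunum, and 1 was called lower of 15 in the ileum. The adapter Blnk rose in the jejunum from 9.8 to 22.1 CPM in the sham group to 52.4 to 58.3 CPM in the RYGB group (log2 fold change 1.71, SE 0.28, adjusted p = 0.0053), and the kinase Lyn rose by 0.93 (SE 0.18, adjusted p = 0.011). Both genes are also used outside B cells. Pik3cd, a lipid kinase of lymphocytes, fell in the jejunum (-1.14, SE 0.31, adjusted p = 0.045) and in the ileum (-1.63, SE 0.34, adjusted p = 0.016).

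Ighm fell in the jejunum, from 1.9 to 3.5 CPM in the sham group to 0.6 to 1.3 CPM in the RYGB group (-0.89, SE 0.23, adjusted p = 0.038). The other 2 immunoglobulin genes listed there were not called, Igha at 3.1 to 75.3 CPM against 2.4 to 43.3 CPM (1.34, SE 1.09) and Igkc at 1.2 to 15.9 CPM against 0.7 to 12 CPM (0.78, SE 0.81). Of 4 plasma cell genes Xbp1 and Sdc1, which epithelial cells also make, were called higher in the jejunum (0.70, SE 0.15, adjusted p = 0.018 and 1.09, SE 0.19, adjusted p = 0.0077), and Jchain and Prdm1 were not called. The 3 immunoglobulin genes listed in the duodenum were not called, with log2 fold changes of 0.81 to 2.78. Their summed CPM was 68.4 to 95.7 in the RYGB libraries and 7.3 to 49.6 in the sham libraries. Of the T cell genes 5 of 7 were called lower in the jejunum and 4 of 6 in the ileum. In the duodenum 0 of 7 were called, where 0.00922% of all genes tested were. The log2 fold changes of these 7 genes were 0.19 to 1.62 there (median 1.23, against 0.12 over all genes tested). Cd8a, the coreceptor of cytotoxic and intraepithelial T cells, was at 2.1 to 5.7 CPM against 13.3 to 21.2 CPM in the jejunum and at 1.7 to 7.2 CPM against 10.9 to 27.8 CPM in the ileum. The jejunal count of T cell genes was 3 with lane as a covariate and 3 without RYGB replicate 1, RYGB replicate 2 or sham replicate 3.

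Spib is also a factor of M cells, the epithelial cells over lymphoid follicles. Of the M cell list Gp2 and Sox8 were not listed in any segment. In the jejunum Ccl20, Marcksl1 and Tnfaip2 were called higher, with Tnfaip2 at 14.6 to 19 CPM against 2.7 to 5.8 CPM (log2 fold change 1.94, SE 0.25, adjusted p = 0.002), and Ccl9 was not called. In the duodenum 0 of 4 and in the ileum 0 of 3 were called. The part of M cells in the Spib values was not tested.

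The genes nearest to Spib in the villi lay outside the B cell lists, Rgs13 excepted. In the duodenum they were H2-Q7 (root mean square difference 0.10 over 7 libraries), Gsdme (0.10), Sh2d6 (0.12), Hap1 (0.12) and Pygl (0.12). In the jejunum they were Slc39a14 (0.083 over 7 libraries), Pla2g4a (0.094), Il17rb (0.098), Trp53bp1 (0.10) and Arl10 (0.11). In the ileum they were Cd24a (0.11 over 10 libraries), Avil (0.14), Siglecf (0.14), Nrgn (0.15) and Ptgs1 (0.16), with Rgs13 of the germinal centre list between them (0.12). Sh2d6, Il17rb, Avil, Siglecf, Ptgs1 and Rgs13 are known as genes of tuft cells, the chemosensory cells of the epithelium.

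In the liver Cd22 had 3, 5.9, 4.1 and 2.1 CPM in the RYGB libraries and 1.6, 2.6, 1.9 and 2.5 CPM in the sham libraries. Cd79b had 1.3, 4.3, 2.1 and 1.4 CPM against 1.3, 1.2, 1.2 and 1.1 CPM. The groups overlapped in Cd22 and touched in Cd79b, and RYGB replicate 2 was the highest library for both. The log2 fold changes were 0.55 for Cd22 (SE 0.24, 95% interval 0.03 to 1.07, adjusted p = 0.16) and 0.49 for Cd79b (SE 0.25, 95% interval -0.05 to 1.03, adjusted p = 0.23), so 0 of the 2 were called where 7.08% of all genes tested were, 5.79% higher. Of all called liver genes 81.8% were higher, and 66.6% were after scaling. Without RYGB replicate 2 they were 0.35 and 0.23. The same library was highest for Ighm (78.0 CPM) and Igkc (38.6 CPM).

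Of 20 listed signalling genes in the liver 5 were called higher and 0 lower, with a median log2 fold change of 0.70 against 0.13 over all genes tested. They were Syk (1.46, SE 0.30, adjusted p = 0.019), Inpp5d (1.05, SE 0.26, adjusted p = 0.034), Plcg2 (1.03, SE 0.26, adjusted p = 0.039), Pik3ap1 (0.87, SE 0.23, adjusted p = 0.039) and Bcl10 (0.65, SE 0.12, adjusted p = 0.013). Myeloid cells use these genes too, and 3 of 8 macrophage genes were called higher in the liver, among them Itgam at 8 to 40.4 CPM against 1.9 to 2.7 CPM. The count of signalling genes was unstable. It was 1 without RYGB replicate 3 or sham replicate 1, 2 without RYGB replicate 2 or any other sham library, 8 without RYGB replicate 4, 9 without RYGB replicate 1, and 3 after scaling the libraries by their median ratio.

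**Figure D5:**
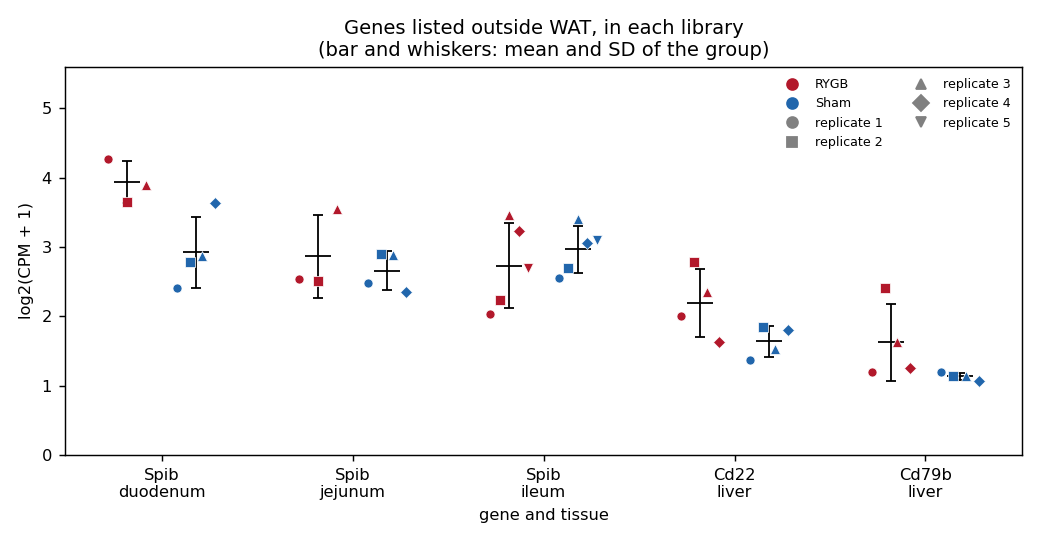
Log2(CPM + 1) of Spib in the villi of 3 intestinal segments and of Cd22 and Cd79b in the liver, in red for RYGB and blue for sham, with the marker shape giving the replicate, and the mean and SD of each group in black. The groups are apart in the duodenum by a narrow gap and overlap or touch elsewhere, and RYGB replicate 2 is the highest liver library in both genes.

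In muscle 0 of the 9 genes were listed, and of all 11966 genes tested 0 were called by limma (1746 at an unadjusted p under 0.05). Of the 21 signalling genes 16 were listed and 0 were called. Ighm was listed in muscle at 34.5 to 130.6 CPM in the RYGB group and 115.8 to 190.9 CPM in the sham group, so an immunoglobulin transcript was measured there where the 9 genes were below the listing threshold.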

How the data were processed

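The deposited values were CPM rounded by the authors to 0.1, in a tissue table holding a column per mouse. The unit was settled from the values, as the columns' totals, with repeated lines counted once, lay between 925122 and 998777. The kit was stranded (TruSeq Stranded mRNA). The submitters' processing notes name HTSeq and GRCm38, and the aligner, the annotation and the versions are not given in the sources used here. Lines repeating a gene were counted once, blank lines were dropped, and so were 12 incomplete liver lines. Each library is 1 labelled sample, and p-values measure the spread between these samples.

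Within a tissue, the RYGB group was set against sham by limma 3.58.1 (R 4.3.3, empirical Bayes with a trend) on log2(CPM + 1) where a gene's mean reached 1 CPM, with Benjamini-Hochberg adjustment over all genes tested. A gene was called at an adjusted p under 0.05 and a fold change of at least 1.5. Tables were normalized separately, so no test was made between tissues, and no count model was used. Some genes of the lists enter the counts but are not reported here. The members and the gene lists were chosen with earlier results of these data known. The genes named were the 9 members, 2 to 5 examples for each list (the largest changes, defining genes and those needed to account for a list) and, outside the lists, the 10 genes of WAT and the 5 of each intestinal segment nearest to the members. Alternatives were a pseudocount of 0.1, no filter, a minimum mean of 10 CPM, scaling by the median ratio, lane as a covariate, replicate numbers as a block, each library left out and adjusted p alone. Positions are from GENCODE M21 and promoter windows from RefSeq, both on GRCm38. The software was numpy 2.4.6, pandas 2.3.3 and matplotlib 3.10.9 under Python 3.11.15. The fit was tested on simulated data.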

Additional observations from a re-analysis of the deposited data

How the results depend on the processing

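Depth is unknown, and the rounding to 0.1 CPM limits values under about 1 CPM. The recounts of list genes were added after seeing the data. In WAT a pseudocount of 0.1 raised the log2 differences of the 9 genes, to 8.12 for Cr2, 7.29 for Cd79a, 7.20 for Ms4a1, 7.13 for Spib, 7.08 for Pax5, 6.88 for Fcer2a and 6.02 for Blk. Scaling moved the share of higher among called genes from 61.8% to 50.3% in WAT, from 81.8% to 66.6% in the liver and from 27.1% to 46.3% in the ileum. Genes called in all were 4980 in WAT by adjusted p alone. With a minimum mean of 10 CPM, and so fewer genes tested, they were 664 in the jejunum, 333 in the ileum, 458 in the liver and 3 in muscle, and the counts of list genes were 0 for germinal centre genes in WAT and 1 for T cell genes in the jejunum and 1 in the ileum. Scaling gave 2 genes in muscle and 3 signalling genes in the liver. Lane as a covariate gave 469 genes and 3 T cell genes in the jejunum and 10 signalling genes in the liver, and could not be fitted in the duodenum, with 1 lane, or in the ileum. What causes these shifts was not tested.

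Leaving out 1 library gave 2460 to 3765 genes in WAT, 0 to 757 in the duodenum (with 0 to 1 of the 9 genes called, Spib at 1.25 without sham replicate 4), 462 to 1015 in the jejunum, 312 to 766 in the ileum, 329 to 1204 in the liver and 0 to 210 in muscle. It gave 1 to 2 plasma cell genes in WAT, 3 to 5 T cell genes in the jejunum and 1 to 9 signalling genes in the liver. Spib in the jejunum turned to -0.13 (adjusted p = 0.74) without RYGB replicate 3, over a range of -0.13 to 0.38.

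Equally numbered libraries deviated with correlations of -0.28 to 0.39, and in no tissue were all above 0.1. Deviations from a mean of 3 to 5 libraries cannot decide whether the numbers pair the mice, so pairing is unknown. The replicate block gave 268 genes in the duodenum against 1 in the main fit, 184 in muscle against 0, and 12 signalling genes in the liver against 5. It changed no call of the 9 genes.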

Other observations

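After the nearest genes of Spib had been seen, 10 genes known from tuft cells were looked up in the villi, as values with no test. In the duodenum 9 of the 10 were listed, with log2 differences between 0.29 (Il17rb) and 0.92 (Sh2d6), beside 1.02 for Spib. In the jejunum Trpm5, the cation channel of chemosensory cells, had 75.3 to 238.9 CPM in the RYGB libraries and 18.3 to 30.7 CPM in the sham libraries, while Dclk1 had 11 to 30.1 CPM against 7.4 to 19.4 CPM and Pou2f3 1 to 3 CPM against 1.1 to 2.1 CPM. In the ileum Trpm5 ranged from 20 to 124.1 CPM in the RYGB group and from 20.6 to 31.4 CPM in the sham group, a log2 difference of 0.84, while the other 8 listed genes had differences between -0.40 (Il17rb) and -0.02 (Pou2f3), beside -0.23 for Spib.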
